A study of Mus musculus with 46 samples.

Results

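Macrophages sorted on F4/80 from sham-operated mouse kidneys were compared with each of the other 3 populations sorted from sham kidneys: proximal tubular (PT) cells, endothelial cells and stromal cells. A gene was taken as a macrophage identity gene where it was higher in macrophages than in each of the 3 populations, and 1430 of the 16934 genes tested met this rule (8.44%). The comparison rests on 4 macrophage samples and 11 others, made up of 3 PT, 4 endothelial and 4 stromal samples, out of 44 samples with an assigned column in the series. Every group was wild-type (WT), and the mice were young adult male C57BL/6 mice. What the sham operation consisted of is not given in the sources used here. The remaining samples came from kidneys after unilateral ureteric obstruction (UUO) or after its reversal (rUUO), and they served here as samples in which the sham calls could be repeated. The labels of the single samples do not give the day after obstruction. PT cells were sorted by Lotus lectin (LTL), endothelial cells by CD31 and stromal cells by PDGFRB, so that Adgre1, which encodes F4/80, and Pecam1 and Pdgfrb, which encode CD31 and PDGFRB, check the sorts and are not findings. The macrophage gate took the cells with high F4/80 and does not cover kidney myeloid cells below it.

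Kidney macrophages lie between the tubules and capillaries, where they take up dying cells and immune complexes, sample the interstitial fluid, and present antigen. Their identity is built on the transcription factor PU.1 (Spi1), on signalling through the receptor for colony-stimulating factor 1 (Csf1r), and on surface receptors that signal through small adaptors with immunoreceptor tyrosine-based activation motifs (ITAM). Tissue macrophages also make the C1q proteins of the complement system, hold many lysosomes and, in the kidney, carry large amounts of major histocompatibility complex (MHC) class II.

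Levels are given as rescaled FPKM, which are the deposited FPKM (fragments scaled to transcript length and to the number mapped) with the 37 genes of the mitochondrial genome left out and the rest scaled to a sum of 1000000 in each sample. This scale was needed because the mitochondrial genes took 24.6% to 28.0% of the FPKM in sham macrophages, 68.9% to 75.6% in PT cells, 32.5% to 43.5% in endothelial cells and 34.0% to 45.8% in stromal cells. On it, 13830 to 15021 genes reached a level of 1 in macrophages, against 12466 to 13284 in PT cells, 14103 to 15400 in endothelial cells and 15431 to 17047 in stromal cells. The table holds no counts, so absolute depth is unknown and no counting interval is given. Taking the median sample as 1, macrophages had a relative depth of 0.73 to 1.07, against 0.81 to 1.62 in PT cells, 0.81 to 1.19 in endothelial cells and 0.97 to 1.19 in stromal cells. In sorted bulk samples of this kind, a lower level through fewer cells of a type and one through less RNA per cell cannot be told apart. The single samples are not labelled with the mouse they came from, and p-values measure the spread between these samples, which may be partly technical.

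Differences are on the scale of log2(rescaled FPKM + 1), macrophages minus the other population, and understate the change of genes with low values. They were tested by limma with Benjamini-Hochberg adjustment over all genes and a threshold of 0.05. Against PT cells, 4547 genes (26.9%) were higher and 3757 (22.2%) lower in macrophages. Against endothelial cells, 2426 (14.3%) were higher and 4996 (29.5%) lower. On this scale stromal cells gave the most uneven comparison, with 2106 genes (12.4%) higher and 6296 (37.2%) lower in macrophages. The 3 comparisons share the 4 macrophage samples. The median difference of all genes was 0.12 against PT cells, -0.32 against endothelial cells and -0.51 against stromal cells, and single genes are read relative to it. Quantile normalization, which brought these medians to 0.00, -0.05 and 0.01, gave 3347 higher and 3746 lower genes against endothelial cells and 3735 higher and 4077 lower against stromal cells. Median-ratio scaling gave 3583 and 3499 against endothelial cells and 3376 and 4131 against stromal cells. Against PT cells, quantile normalization gave 4263 higher and 4186 lower genes, and median-ratio scaling 4827 and 3971. With FPKM as deposited, mitochondrial genes included, 7439 genes were higher and 1784 lower in macrophages than in PT cells, 3014 and 3482 against endothelial cells, and 2851 and 3981 against stromal cells. There the PT comparison was the most uneven.

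The 1430 identity genes took 34.9% to 39.8% of the rescaled FPKM of each macrophage sample, against 4.28% to 4.96% in PT cells, 7.60% to 9.10% in endothelial cells and 7.01% to 7.20% in stromal cells. A higher share in macrophages follows from the rule, which chose the genes on these same samples. The smallest of a gene's 3 differences measured how far it stood above the nearest population. It ranged from 0.37 to 7.62 with a median of 1.99, where the median over all genes tested was -0.95. It was above 2 in 714 identity genes, above 4 in 239 and above 6 in 74. The nearest population was stromal cells for 654 of them, endothelial cells for 486 and PT cells for 290. In 1141 identity genes all 4 macrophage samples lay above all 11 others, and over all genes tested 1215 (7.17%) did so. Protein-coding genes made up 1049 of the 1430 (73.4%), against 80.1% of the genes tested, and the rest held 105 models marked in the annotation as awaiting experimental evidence (TEC), 78 processed pseudogenes, 60 antisense RNAs, 58 lincRNAs and 80 of other classes. Strand was not stated for the counting, so that an antisense RNA and the gene across from it cannot be separated, and a pseudogene may share fragments with its parent. A level of at least 100 was reached by 373 identity genes in macrophages. In the other direction, 1810 genes (10.7%) were lower in macrophages than in all 3 populations, and 8456 (49.9%) were lower than in at least 1. A further 1121 genes were higher than in exactly 2 populations, of which 584 missed the test against stromal cells, 380 that against endothelial cells and 157 that against PT cells.

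The cells carried the markers of their label, with a single exception. Adgre1 (ENSMUSG00000004730.14, chr17:57358686-57483529 of GRCm38) was at 341, 342, 463 and 331 in the 4 macrophage samples, and at 1.90 to 3.22 in PT cells, 1.501 to 2.17 in endothelial cells and 1.95 to 2.14 in stromal cells. Csf1r (ENSMUSG00000024621.15), the receptor on which macrophage survival depends, was at 1109.8, 974, 1292 and 1022. Its levels elsewhere were 5.15 to 8.59 in PT cells, 4.34 to 5.47 in endothelial cells and, higher, 15.1 to 32.1 in stromal cells. No sample of another population came near the macrophage samples for either gene, and the stromal levels of Csf1r lay above all PT and endothelial ones. Ptprc (ENSMUSG00000026395.16, chr1:138062861-138175708), which encodes the leukocyte antigen CD45, was at 473, 509, 458 and 452 against 1.39 to 4.98 in the 11 other samples. Its differences were 6.80 ± 0.30, 7.25 ± 0.27 and 7.34 ± 0.27 (SE) against PT, endothelial and stromal cells. The chemokine receptor gene Cx3cr1 was at 379.5 to 514 and the lysosomal glycoprotein gene Cd68 at 1119 to 1531, against 1.70 to 3.29 and 5.16 to 12.9 elsewhere. Itgam, which encodes CD11b, was lower in level than these, at 144, 134, 172 and 105 against 1.46 to 4.15.

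Mertk, which encodes a receptor for the uptake of dying cells and is often used to mark tissue macrophages, went the other way. It was at 11.6, 9.58, 8.98 and 8.65 in sham macrophages, against 18.2 to 19.1 in PT cells, 41.4 to 80.3 in endothelial cells and 44.6 to 60.6 in stromal cells. Every macrophage sample lay below all 11 others, and the differences were -0.87 ± 0.24, -2.55 ± 0.22 and -2.38 ± 0.22 (SE) with limma adjusted p-values of 0.0058, 4.6e-08 and 1.0e-07. After surgery the order against PT cells turned. Macrophages were at 27.5 ± 5.21 (SD, n = 4) in UUO and 35.4 ± 3.66 (SD, n = 3) in rUUO, and PT cells at 10.1 and 12.7. The difference against PT cells was 1.36 in UUO and 1.45 in rUUO, and its change from sham was 2.24 (limma interaction, adjusted p = 1.2e-05) and 2.33 (adjusted p = 6.0e-05). The interaction is reported only for named genes with opposite calls, a choice that makes small p-values likely. Of the 9 macrophage markers, Mertk was the 1 that was not an identity gene in sham.

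**Figure D1:**
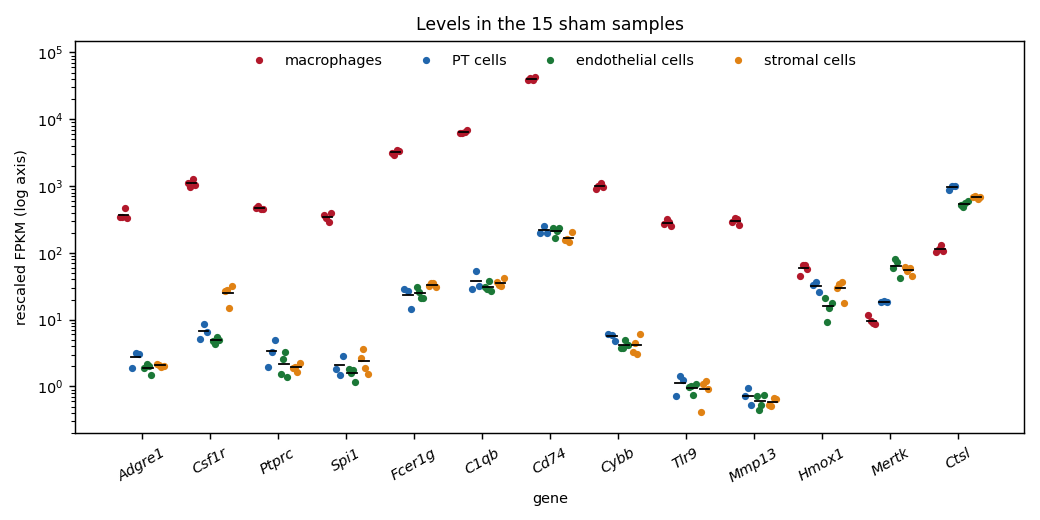
Rescaled FPKM (log axis) of 13 genes in the 15 sham samples, with a point per sample and a black line at each population's mean. From Adgre1 to Mmp13 the 4 macrophage samples lie far above the rest, for Hmox1 the gap is small, and for Mertk and Ctsl the macrophage samples lie below all others (Ctsl at 104 to 133 in macrophages).

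Ranked by the smallest of the 3 differences, the 15 leading identity genes with separate groups were Laptm5, Mgl2, H2-Eb1, Cd74, Mmp13, C1qb, C1qc, H2-Aa, Cybb, H2-Ab1, Fcgr4, Lilra5, C1qa, Tlr9 and Cd52. They cover antigen presentation (H2-Eb1, H2-Aa, H2-Ab1 and Cd74), the C1q chains (C1qa, C1qb and C1qc), a phagocyte oxidase subunit (Cybb), an Fc receptor (Fcgr4), a lectin (Mgl2), a DNA sensor (Tlr9), a collagenase (Mmp13), a lysosomal membrane protein of leukocytes (Laptm5) and small surface proteins. Laptm5 was at 3901, 4098, 4609 and 3831 in the macrophage samples and at 13.7 to 35.7 in the others. Mmp13, the gene of a secreted protease that cleaves fibrillar collagen, was at 290.2, 327, 316 and 259.6, and at 0.443 to 0.963 in the others. Its differences were 7.44 ± 0.28, 7.54 ± 0.26 and 7.55 ± 0.26 (SE). After surgery the macrophage levels of Mmp13 were 22.1 ± 5.88 (SD, n = 4) in UUO and 13.7 ± 3.56 (SD, n = 3) in rUUO. It was an identity gene there too, and the smallest of the 3 differences was 2.61 in UUO (largest of the 3 limma adjusted p-values 0.0043) and 2.90 in rUUO (9.3e-06). Mgl2, a C-type lectin that binds galactose-type sugars, was at 681, 586, 527 and 640.4 in sham macrophages and at 216 ± 34.9 (SD, n = 4) and 245 ± 28.00 (SD, n = 3) after UUO and rUUO. The changes of macrophage levels between surgeries were not tested.

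Ranking by the smallest difference picks genes with a low share of the macrophage level in every other population. A low share in all 3 therefore follows from the choice of the 15 leading genes. All 15 had a low level in the other populations. It was 0.245% to 0.721% of the macrophage mean in PT cells (median 0.529%), 0.204% to 0.68% in endothelial cells (median 0.459%) and 0.198% to 0.559% in stromal cells (median 0.425%). Cd74, for example, was at 202, 253 and 197 in the 3 PT samples, with 39130.5 to 42572 in macrophages. Whether macrophage RNA or reads reached the other samples was not tested, and the size of these differences depends on that low level.

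**Figure D2:**
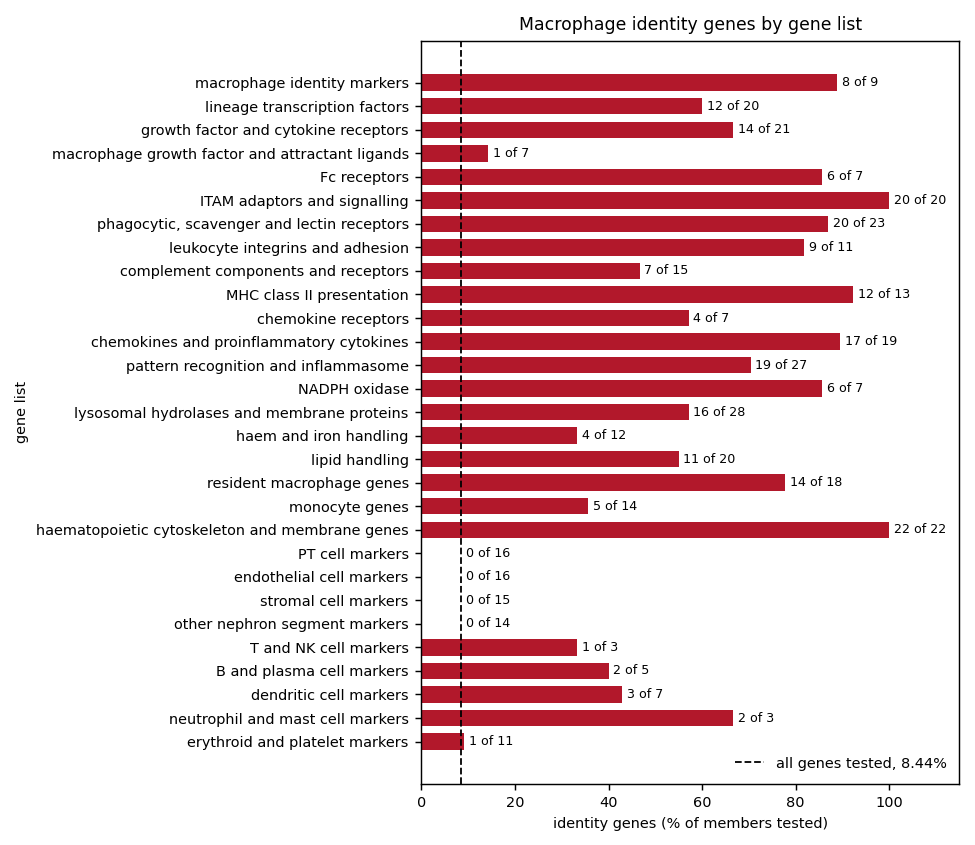
Share of the tested members of each of 29 gene lists that were higher in sham macrophages than in all 3 other populations (bars, with counts), beside the 8.44% of all genes tested (dashed line). Every member tested of the ITAM and haematopoietic lists was an identity gene, and no marker of PT, endothelial, stromal or other nephron cells was.

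Members of 29 gene lists show what kinds of genes these are. Since the lists were chosen with earlier results known, their counts are a description beside the 8.44% of all genes. Their median smallest differences are read beside the -0.95 of all genes tested, and their counts of genes lower than in some population beside the 49.9% of all genes.

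Among transcription factors of the myeloid lineage, 12 of 20 were identity genes, with a median smallest difference of 2.36. Spi1, which encodes PU.1, was at 363, 334, 289 and 392 in macrophages and at 1.15 to 3.61 in the other samples, with differences of 6.83 ± 0.29, 7.06 ± 0.27 and 6.69 ± 0.27 (SE). Runx3 (84.9, 91.2, 64.3 and 68.8 against 0.0962 to 0.747), Ikzf1 (99.2 to 127 against 0.356 to 2.89) and Irf5 (67.1 to 100.3 against 0.14 to 4.62) followed. They encode a Runt factor, the lymphoid and myeloid factor Ikaros and an interferon regulatory factor of the inflammatory response. The groups did not overlap for any of these 4 genes. Lower in macrophages than in some other population were 5 of the 20, a smaller share than the 49.9% of all genes. Klf4, which is also an endothelial factor, had 5.30 to 15.6 in macrophages and 85.2 to 139 in endothelial cells (difference -3.44 ± 0.39 (SE)), and Tfec, of the MITF family, had 0.289 to 2.48 in macrophages and 11.04 to 24.9 in PT cells (-3.08 ± 0.57 (SE)). Runx1 was an identity gene in sham, at 213 to 309 in macrophages against 7.96 to 11.4 in stromal cells. It was no longer called in UUO or rUUO, where stromal means were 126 and 106 and macrophage means 124 and 121.

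Receptors for growth factors and cytokines gave 14 identity genes of 21 tested. Beside Csf1r, the receptor genes for interleukin 10 (Il10ra, 149, 129.7, 147 and 142), granulocyte colony-stimulating factor (Csf3r, 138, 53.4, 81.4 and 38.9) and interleukin 21 (Il21r, 29.9, 29.4, 21.3 and 22.9) led, against 0.356 to 1.56, 0.337 to 4.64 and 0 to 0.407 in the other samples. Of these 3, Csf3r varied most among the macrophage samples. Kit, the stem cell factor receptor, and Il17ra were lower than in some population, at 0.674 to 3.82 and 2.35 to 9.32 in macrophages, against 7.41 to 37.04 in endothelial cells for Kit and 23.1 to 33.4 in PT cells for Il17ra. Ligands that support or attract macrophages gave 1 identity gene of 7 tested, and 5 of the 7 were lower in macrophages than in some population, beside the 49.9% of all genes (median smallest difference -1.86). Il34, a second ligand of the Csf1 receptor, was at 0.239, 8.66, 0.412 and 0 in macrophages and at 55.2, 45.8, 27.8 and 42.00 in stromal cells, a difference of -4.39 ± 0.75 (SE, limma adjusted p = 1.1e-04). A single macrophage sample held nearly all of the macrophage signal. Cx3cl1, the ligand of Cx3cr1, was at 6.30, 2.04, 3.22 and 6.09 in macrophages, and its levels were 71.9 to 188 in endothelial and 64.7 to 139 in stromal cells. The differences were -4.57 ± 0.35 and -4.04 ± 0.35 (SE). In both receptor and ligand pairs, the receptor was high in macrophages and the ligand in endothelial or stromal cells. Ccl2, which attracts monocytes through Ccr2, was the ligand that was higher in macrophages, at 34.9, 23.4, 55.1 and 22.4 against 0.458 to 11.8.

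Fc receptors bind the constant part of antibodies. Of 7 genes, 6 were identity genes, and Fcgrt, which recycles antibody in many cell types, was the exception. Fcgr4 was at 372, 401, 358 and 427 against 0.794 to 2.41, and Fcer1g, the signalling chain that Fc receptors share, at 3142, 2924, 3481 and 3395 against 14.5 to 35.2. Fcgr1 (141 to 187) and Fcgr3 (342 to 487) stood above 0.633 to 1.70 and 1.62 to 15.99, and a PT sample held the highest other level of Fcgr3. Fcgr2b, the inhibitory receptor, was an identity gene with a mean of 372 although PT cells had 39.99, against 3.24 and 3.58 in endothelial and stromal cells. The ITAM adaptors and the kinases, exchange factors and lipid enzymes that act after them were identity genes in 20 of 20 cases (median smallest difference 4.44). Tyrobp, which encodes the adaptor DAP12, was at 2787, 2701, 3410.1 and 3491 against 12.5 to 57.01. Nckap1l (209.5, 201, 189 and 174), a part of the complex that drives actin assembly in blood cells, and Rac2 (101.1, 106, 129 and 128), a GTPase of the same route, were at 0.614 to 1.82 and 0.198 to 1.42 elsewhere.

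Phagocytic, scavenger and lectin receptors gave 20 identity genes of 23 tested, and 4 more of the 27 listed were too low to test. Clec7a, which encodes the beta-glucan receptor Dectin-1, was at 183, 241, 339.7 and 274 against 1.06 to 2.78. The inhibitory receptor genes Lilrb4a (247 to 342) and Pirb (165 to 205) and the lectin Clec4a3 (154 to 281) were at 1.46 to 4.74, 0.65 to 3.23 and 0.866 to 4.81 in the other samples. Lilrb4a and Pirb belong to multigene families, so fragments may be shared with close copies. Mertk was the member called lower. Timd4, Vsig4 and Cd5l, which mark resident macrophages of liver or peritoneum, had means of 1.34, 0.742 and 2.50 in sham kidney macrophages. Among leukocyte integrins and adhesion genes 9 of 11 were identity genes. Selplg, the P-selectin ligand, was at 238, 258, 212 and 285, Itgb2, the chain shared by leukocyte integrins, at 242, 246, 284 and 299, and Itgax, which encodes CD11c, at 92.99, 112, 94.3 and 108. In the other samples they were at 0.361 to 2.28, 0.899 to 3.42 and 0.254 to 2.55.

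Itga4, the alpha chain of the integrin VLA-4, was lower than in stromal cells, at 20.02, 23.7, 28.4 and 15.7 in macrophages against 131, 137, 129.8 and 109.7 (difference -2.50 ± 0.31 (SE), limma adjusted p = 2.9e-06). In UUO and rUUO the stromal means were 2.83 and 4.60, and the macrophage means 31.98 and 26.98. The difference from stromal cells changed by 5.58 in UUO (limma interaction, adjusted p = 6.2e-11) and by 4.90 in rUUO (adjusted p = 5.7e-09). As for Mertk, this interaction is reported because the calls had opposite signs. Other leukocyte genes had a high stromal level in sham. Cd53, which encodes a tetraspanin of leukocytes, was at 91.9, 82.6, 75.7 and 81.6 there, and the mannose receptor gene Mrc1 at 131, 127, 155 and 96.1, against 2.02 to 2.41 and 2.89 to 5.48 in PT cells. After UUO the stromal means were 11.1 and 3.31. The macrophage means of Mrc1 were 287 in sham, 477 in UUO and 422 in rUUO. In the same 4 stromal samples Adgre1 was at 1.95 to 2.14 and Ptprc at 1.66 to 2.21.

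Of the complement genes 7 of 15 were identity genes, and 6 of 15 were lower than in some population, which is below the 49.9% of all genes. The C1q chains were at 2485, 2417, 2471 and 3211 (C1qa), 6164, 6160.4, 6405 and 6979.6 (C1qb) and 3445, 3238, 3404 and 3713 (C1qc). No other sample exceeded 53.7. C5ar1, the receptor for the C5a peptide, was at 406, 359, 388 and 325 against 1.66 to 6.54. Among those lower than in some population, C1s1 and C1ra encode the proteases that complete the C1 complex. C1s1 was at 5.05, 2.39, 3.54 and 1.67 in macrophages and 295, 338, 392 and 249 in stromal cells, and C1ra at 1.12, 0.864, 0.842 and 1.04 and 50.9, 57.6, 77.5 and 43.8. The differences from stromal cells were -6.31 ± 0.28 for C1s1 and -4.87 ± 0.42 for C1ra (SE), with limma adjusted p-values of 1.1e-11 and 3.4e-08. The macrophage and stromal samples of these genes did not overlap.

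MHC class II genes were the most abundant of the lists in macrophages. Their 14 genes took 10.3% to 11.97% of the rescaled FPKM of each macrophage sample, and 12 of 13 tested were identity genes. Cd74, the invariant chain, was at 39342, 41027, 39130.5 and 42572, H2-Aa at 28544, 31348, 33384 and 33089.9, H2-Ab1 at 20726, 18645, 22044 and 25661 and H2-Eb1 at 9311, 9596, 9885 and 12042. The other samples had 146 to 253, 122 to 233, 95.6 to 172 and 32.7 to 63.4. These genes encode the invariant chain, the alpha and beta chains of I-A and the beta chain of I-E. The groups were far apart, and the spread among the 4 macrophage samples was small beside the gap. Ciita, their transcriptional activator, had 36.9 in macrophages, and 0.55, 0.643 and 0.315 in PT, endothelial and stromal cells. Cd40 was the tested member that missed, with means of 16.3 in macrophages and 27.8 in endothelial cells. In UUO and rUUO macrophages, Cd74 was at 24249 ± 3861 (SD, n = 4) and 24814 ± 2205 (SD, n = 3), with both means below every sham sample, and the smallest of the 3 differences was 5.36 in UUO (largest of the 3 limma adjusted p-values 8.7e-11) and 5.02 in rUUO (6.9e-11).

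Of the chemokine receptors 4 of the 7 tested were identity genes, among them Ccr2 (92.3, 149.6, 164 and 135), Cx3cr1 and Cxcr3 (5.18, 8.23, 5.09 and 16.99). Their highest levels in the other samples were below those of every macrophage sample. Ccrl2, an atypical receptor, was lower than in endothelial cells, at 12.2 to 23.7 against 130.03 to 175. Ccr7, Ccr6 and Ccr3 had means of 1.14, 0 and 0.337 in macrophages. Chemokines and cytokines of the inflammatory response gave 17 of 19. Ccl3 was at 172, 233, 356 and 380.02, Ccl12 at 225, 280.4, 269.5 and 269.5 and Il1b, the gene of interleukin 1 beta, at 232, 209.6, 309 and 341, against 0.359 to 7.45, 0 to 4.61 and 2.04 to 4.92. Ccl6 ranged from 115.3 to 213. Il6 and Il12b were near 0 in macrophages, with means of 0.0383 and 0.157, and the neutrophil attractant Cxcl1 was higher in stromal cells (6.69 to 8.76) than in macrophages (0.551 to 3.69, difference -1.58 ± 0.35 (SE)).

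Pattern recognition genes gave 19 of 27. Tlr9, a sensor of bacterial DNA, led at 271, 319, 292 and 248 against 0.414 to 1.44. Ly86, a partner of the receptor-like protein Cd180, was at 599, 676, 756 and 760.4, Tlr13, a sensor of bacterial ribosomal RNA, at 109, 143, 134 and 116, and Tlr1 at 110.1, 117, 128 and 103. In the other samples these were at 2.03 to 10.3, 0.474 to 1.15 and 0.257 to 1.59. Tlr4 and Tlr3 were not identity genes. Tlr4 had means of 71.4 in macrophages, 65.9 in stromal cells and 43.2 in endothelial cells, and Tlr3 of 54.9 in macrophages and 70.03 in endothelial cells. Nod1 was lower than in endothelial cells, at 6.55 to 23.03 against 22.6 to 55.7, and the difference was -1.93 ± 0.39 (SE). A single endothelial sample lay within the macrophage range. The NADPH oxidase of phagocytes gave 6 of 7. Cybb, its catalytic subunit, was at 892, 993, 1111 and 959 against 3.10 to 6.17, Ncf1 at 80.4, 95.2, 86.4 and 97.3 and Ncf4 at 56.5, 78.6, 45.2 and 63.6. Cyba, the subunit that other oxidases share, was the exception, with means of 404 in macrophages and 368 in PT cells.

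Of 28 lysosomal genes tested, 16 were identity genes. Lower in macrophages than in some population were 9 of 28, beside the 49.9% of all genes, and lower than in all 3 were 2 of 28, beside the 10.7% of all genes (median smallest difference 1.25). Ctss, the cathepsin that trims the invariant chain, was at 3026, 3035, 3739 and 3755 against 16.2 to 32.4, and Lyz2, lysozyme, at 7397, 7723, 13428 and 8319 against 83.6 to 176. The third macrophage sample was the highest for Lyz2. Ctsl, a cathepsin of most cell types, was lower than in every other sample, at 104, 116, 133 and 107 against 877 to 1001 in PT cells, 492 to 592 in endothelial cells and 637 to 704 in stromal cells. Its differences were -3.05 ± 0.13, -2.23 ± 0.12 and -2.55 ± 0.12 (SE), with limma adjusted p-values of 6.4e-12, 9.6e-11 and 1.8e-11. In UUO and rUUO macrophages it was at 379 ± 116 (SD, n = 4) and 266 ± 34.5 (SD, n = 3). Lamp1, which encodes a membrane protein of every lysosome, had means of 505 in macrophages, 1169 in PT cells, 614 in endothelial cells and 553 in stromal cells.

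Genes of haem and iron handling gave 4 identity genes of 12, and 6 of the 12 were lower than in some population, near the 49.9% of all genes. The exporter of metal from the phagosome, Slc11a1, was at 122, 113, 141 and 122 against 0.346 to 18.6, and Hmox1, haem oxygenase, at 44.6, 65.7, 66.9 and 57.4 against 9.33 to 36.9. For Hmox1 the gap to the nearest sample was small and its differences were 0.86 ± 0.30, 1.86 ± 0.28 and 1.00 ± 0.28 (SE). The call of Hmox1 was lost without the fourth PT sample, the second or the third macrophage sample, with smallest differences of 0.71, 0.80 and 0.79. Cd163, the receptor for haemoglobin bound to haptoglobin, was low, at 5.88, 1.05, 9.02 and 5.07. Slc48a1, a haem transporter, was at 18.8, 11.9, 21.8 and 16.8 in macrophages and 179, 188, 144 and 159.5 in stromal cells. Its difference from stromal cells was -3.23 ± 0.21 (SE, limma adjusted p = 1.2e-09). Lipid handling gave 11 of 20. Apoe was at 6420.5, 5604, 8296 and 8057 against 165 to 422, Alox5ap, which hands arachidonic acid to 5-lipoxygenase, at 529.9, 515, 554 and 711 against 2.81 to 30.2, and Hpgds, a prostaglandin D synthase, at 94.1, 61.2, 69.7 and 58.7 against 0.162 to 1.95. Fabp4, a fatty acid carrier of capillaries and fat cells, was lower than in endothelial cells, at 5.10 to 8.56 against 572 to 1394 (difference -6.95 ± 0.31 (SE)).

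Genes linked to resident macrophages gave 14 identity genes of 18 tested, and genes linked to monocytes 5 of 14. Lower in macrophages than in some population were 2 of the 18 and 7 of the 14, the latter near the 49.9% of all genes. The monocyte genes summed to 635 to 830 in macrophages and to 1099 to 1791 in endothelial cells. The lists differ in the genes they hold, and the difference between them was not tested. P2ry12 (mean 25.4), Tmem119 (55.6) and Gpr34 (15.7), which are used to mark microglia, were identity genes, and Sall1, a factor of microglia and of kidney development, was at 0.753, 0.239, 2.90 and 0.816 against 8.44 to 14.01 in PT cells. Lyve1, a marker of macrophages beside vessels, had means of 7.02 in macrophages and 10.02 in endothelial cells. Of the monocyte genes, Spn (132, 118, 125 and 144), which encodes CD43, Treml4 (9.79, 7.06, 9.40 and 11.4) and F13a1 (6.39, 10.4, 29.5 and 8.81), which encodes a subunit of a coagulation factor, were identity genes beside Ccr2. Ly6c2 and Chil3, which mark classical monocytes, had means of 1.12 and 1.28, and Plac8 was at 1.97 to 9.03 against 80.97 to 117 in endothelial cells. Vcan, which encodes the proteoglycan versican, was at 0.901 to 1.21 against 19.8 to 78.98 in stromal cells. The cytoskeletal and membrane genes of blood cells were identity genes in 22 of 22 cases. Their summed level was 7775 to 9284 in macrophages, 79.02 to 119 in PT cells, 203 to 294 in endothelial cells and 407 to 532 in stromal cells. Among them, Aif1, which encodes the actin-binding protein IBA1, was at 966, 942, 1036 and 1608, and Cd52, a small surface glycoprotein of leukocytes, at 1089, 1121, 1367 and 1637.

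Markers of the other sorted cells were low in macrophages but not at 0. No marker of PT, endothelial, stromal or other nephron cells was an identity gene, and 16 of 16, 16 of 16, 15 of 15 and 13 of 14 tested were lower than in some population, beside the 49.9% of all genes. The 16 PT markers summed to 755 to 952 in macrophages and 29386 to 32926 in PT cells, and each was at 1.41% to 15.05% of its PT mean in macrophages (median 1.90%). The highest share was that of Slc13a3, a dicarboxylate transporter, with means of 58.1 and 386. In endothelial cells the share of the PT mean had a median of 1.94% but reached 362.6%, so not every PT marker was highest in PT cells. Endothelial markers summed to 74.1 to 123 in macrophages and 9440.5 to 12662 in endothelial cells, and stromal markers to 34.2 to 151 and 4943 to 8352. The median share was 0.699% of the endothelial and 1.60% of the stromal mean. The fourth macrophage sample was the lowest for Pdgfrb, at 0.306, where the others had 1.51, 1.64 and 2.11. Other nephron markers, of the thick limb, distal tubule, collecting duct and glomerulus, summed to 138 to 235 in macrophages and to 226 to 304, 514 to 2505 and 1299 to 1719 in PT, endothelial and stromal cells. The part of these shares in the differences was not tested.

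Markers of other blood cells separated into those near 0 and a few that were high. Of 17 T and NK cell markers, 14 had a mean under 1 in macrophages, among them the CD3 chains Cd3d, Cd3e and Cd3g (0.0608, 0.385 and 0), and Lck was listed at 0 in all 4 samples. Cd4, which myeloid cells can also carry, was at 60.5, 48.6, 67.8 and 50.4 against 0.139 to 2.80. Cd79b, a chain of the B cell receptor complex, was at 75.7, 103, 86.3 and 80.5 against 0 to 3.97, and the groups did not overlap. Its partner Cd79a had a mean of 2.55, and Ms4a1, which encodes the B cell antigen CD20, of 0.47. Of 11 B and plasma cell markers, 5 had a mean under 1. The list gave 2 identity genes of 5 tested, with a median smallest difference of -0.18. Of the 5 tested, 1 was lower in macrophages than in all 3 populations, beside the 10.7% of all genes. Further B cell genes, picked after their values were seen and without a count of those that missed, were identity genes without overlap. Among them were Ighm, Bank1, Ighd, Igkc and Cd22. Their smallest differences were 6.65, 4.56, 3.17, 2.92 and 2.78, and all were called in UUO and rUUO. For Ighm it was 5.96 in UUO and 6.15 in rUUO. For Cd79b, the smallest of the 3 differences was 5.01 in UUO (largest of the 3 limma adjusted p-values 1.7e-07) and 5.11 in rUUO (1.0e-07). Of the dendritic cell markers, Clec9a was at 60.5, 69.4, 50.01 and 46.6, Batf3 at 10.8, 19.6, 38.3 and 53.8 and Siglech at 7.00, 3.60, 1.42 and 5.30, and these 3 of 7 tested were identity genes. For Batf3 a single endothelial sample, at 28.3, lay within the macrophage range. Flt3, Xcr1, Zbtb46 and Ccr7 had means of 0.76, 3.52, 1.54 and 1.14. Clec9a and Siglech were no longer called in UUO or rUUO, and Batf3 was called in both. Macrophage levels of Clec9a were 16.2 ± 4.26 (SD, n = 4) in UUO and 24.2 ± 5.14 (SD, n = 3) in rUUO. Of 15 neutrophil and mast cell markers, 12 had a mean under 1, and 10 of them were at 0 in every macrophage sample, among them Ly6g, Mpo, Elane and the mast cell gene Cpa3. S100a9, which neutrophils hold in large amounts, was an identity gene at 6.00, 4.08, 9.36 and 4.95. Its call was lost without the second PT sample or the first endothelial sample, with smallest differences of 1.43 and 1.35. S100a9 overlapped with other samples and was not called again in UUO or rUUO. The other identity gene among the 3 tested was Csf3r, which made up most of the summed level of this list in macrophages. Csf3r did not overlap and was called in both surgeries. Hbb-bs, an adult globin gene, had means of 127 in macrophages, 61.4 in PT cells, 116 in endothelial and 129 in stromal cells, and Pf4, a chemokine of platelets that macrophages also express, was at 376, 354, 468 and 381 in macrophages against 2.22 to 76.1. Cd24a, which epithelial and endothelial cells share with dendritic cells, made up most of the dendritic list in endothelial cells (mean 1927). Summed levels in macrophages were 54.1 to 74.96 for T and NK, 201 to 254 for B and plasma, 129 to 156 for dendritic, 45.1 to 145 for neutrophil and mast, and 511 to 794 for erythroid and platelet markers. Over the other samples the same sums were 3.15 to 61.3, 68.2 to 259.6, 84.9 to 2312, 0.814 to 37.9 and 75.5 to 863. For B and plasma markers the stromal sums were 229 to 259.6, against the 201 to 254 of macrophages. How many other myeloid or lymphoid cells passed the gate was not tested.

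**Figure D3:**
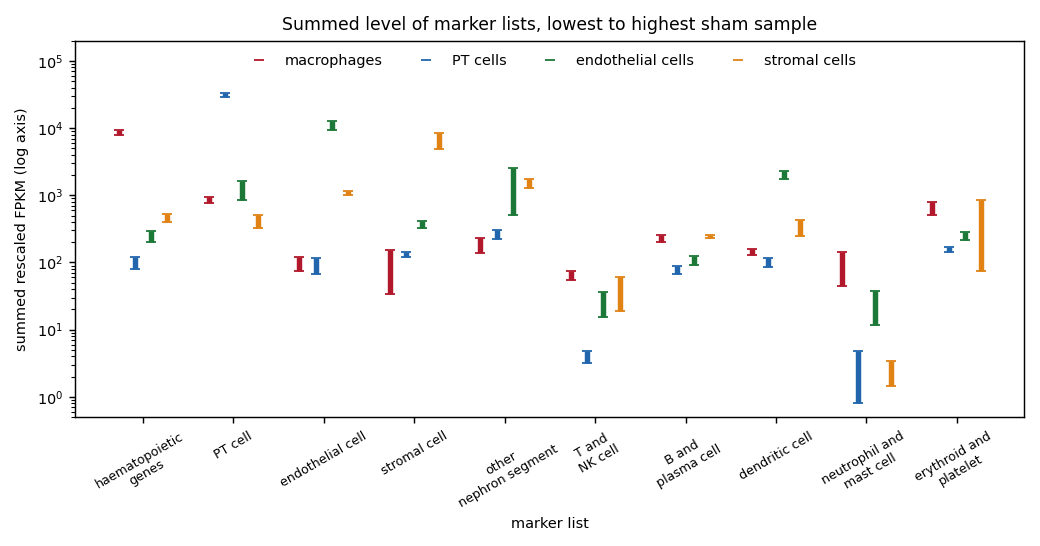
Summed rescaled FPKM (log axis) of 10 marker lists in the sham samples, drawn from the lowest to the highest sample of each population. Haematopoietic genes are highest in macrophages (7775 to 9284), the sum of each set of sorting-related markers is highest in its own population, and PT markers in macrophages span 755 to 952.

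The largest falls in macrophages were read in each comparison in turn. Against PT cells they were Smim22 (0 to 9.74 against 400.4 to 552), Erich4 (0.73 to 4.19 against 169 to 293) and Acsm2 (25.2 to 78.1 against 3581 to 3760.0), a mitochondrial acyl-CoA synthetase of the tubule. Against endothelial cells they were Ly6c1 (8.82 to 29.95 against 4138 to 4304), a surface protein of capillaries, Bvht, a long non-coding RNA, and Ehd3 (1.90 to 8.20 against 558 to 1305), of the glomerular endothelium. Against stromal cells they were Sfrp2 (1.09 to 5.56 against 1744 to 2730.2), which encodes a Wnt antagonist, Ptn, the growth factor pleiotrophin, and Ctgf (1.72 to 4.89 against 1194 to 2118), a matrix protein. Their differences were -6.79 ± 0.60, -6.30 ± 0.36 and -6.23 ± 0.42 against PT cells, -7.85 ± 0.33, -7.63 ± 0.46 and -7.50 ± 0.38 against endothelial cells, and -8.90 ± 0.35, -8.65 ± 0.26 and -8.40 ± 0.26 against stromal cells (SE). At the edge of the rule, Hgf, Spty2d1 and Gm16096 were just inside, with smallest differences of 0.77, 0.59 and 1.42, and Mthfd2, Fos and Slc23a2 just outside, with 1.25, 0.52 and 0.59. Gm16096, at 2.72, 1.71, 11.8 and 0.527, overlapped with other samples, whereas Fos, at 80.6, 105, 101.4 and 89.4 against 7.92 to 78.98, did not. None of the 3 genes just inside stayed called in every alternative that left out 1 sample.

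Samples from the other surgeries gave a check of the sham calls on values that the rule did not use. In UUO, 1026 of 16747 genes (6.13%) were higher in macrophages than in all 3 populations, and in rUUO 963 of 17105 (5.63%). Of the 1430 sham identity genes, 784 were called again in UUO, which is 54.8% of the sham list and 76.4% of the UUO list. In rUUO 761 were called again, 53.2% of the sham list and 79.0% of the rUUO list. Both surgeries called 662 of them (46.3%) and neither called 547. In UUO 109 sham identity genes were too low to be tested and in rUUO 118, and the mean was above all 3 populations in 1203 and 1177. Of the 1430, 19 were called lower than some population in UUO and 13 in rUUO, where 43.7% and 49.6% of all genes tested were. Of the 239 genes with a smallest difference above 4, 233 (97.5%) were called in UUO and 235 (98.3%) in rUUO, and of the 714 above 2 it was 548 (76.8%) and 546 (76.5%). Of the 190 genes with a difference of at most 1, 42 and 41 were called. The sham identity genes took 31.5% to 38.7% of the rescaled FPKM in UUO macrophages and 31.6% to 33.4% in rUUO macrophages. In UUO they took 6.40% to 8.18% in PT, 9.04% to 10.2% in endothelial and 9.65% to 11.6% in stromal cells. In rUUO these shares were 6.57% to 7.13%, 8.68% to 10.1% and 9.07% to 9.98%. For Ptprc, the smallest of the 3 differences was 6.45 in UUO (largest of the 3 limma adjusted p-values 5.9e-09) and 5.79 in rUUO (4.7e-09). For C1qb, the smallest of the 3 differences was 7.38 in UUO (largest of the 3 limma adjusted p-values 1.8e-11) and 7.05 in rUUO (7.7e-11), and for Spi1, the smallest of the 3 differences was 6.07 in UUO (largest of the 3 limma adjusted p-values 3.3e-08) and 6.35 in rUUO (1.2e-09). By list, all 22 haematopoietic genes were called in both surgeries, and 17 and 19 of the 20 ITAM genes in UUO and rUUO. Hgf, the growth factor gene just inside the sham rule, turned against stromal cells, from a difference of 0.77 in sham to -2.36 in UUO and -1.16 in rUUO. The change was -3.13 (limma interaction, adjusted p = 0.00011) and -1.93 (adjusted p = 0.037), again reported because the calls had opposite signs. Macrophage means of Hgf were 10.6, 7.42 and 10.6, and stromal means 5.64, 40.5 and 25.2.

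**Figure D4:**
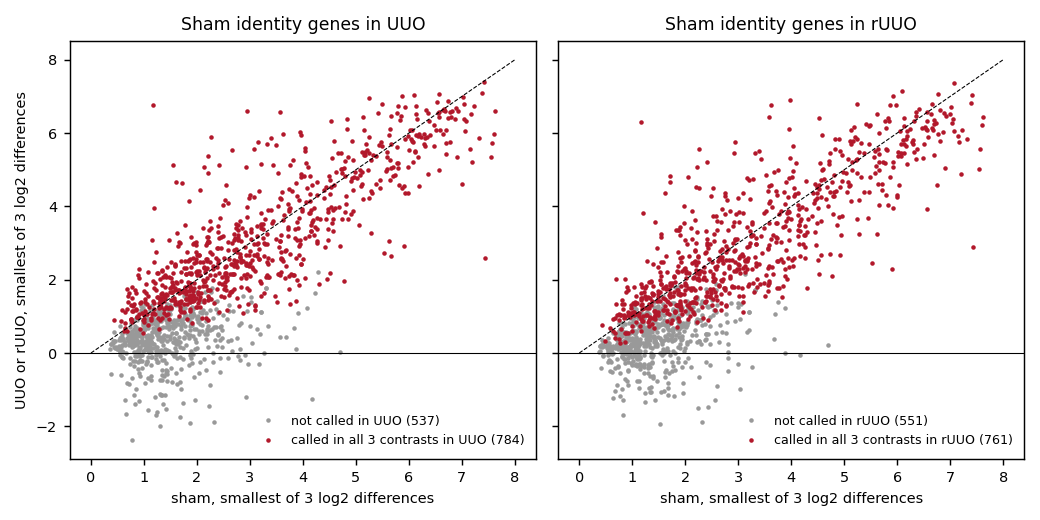
Smallest of a gene's 3 log2 differences (macrophages minus PT, endothelial or stromal cells) in sham on the horizontal axis and in UUO (left) or rUUO (right) on the vertical axis, a point per sham identity gene that was also tested after that surgery. Red points, 784 in UUO and 761 in rUUO, were called in all 3 comparisons there, grey points were not, the dashed line marks equal differences, and nearly all points above 4 on the horizontal axis are red.

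A last description concerns sequence, which the rule did not use. Promoters from 250 bases before to 50 after the gene start (RefSeq, GRCm38.p6) were at hand for 881 of the 1429 identity gene symbols and were searched on both strands for short motifs, without any test. The PU.1 motif GAGGAAGT was present in 101 of the 881 promoters (11.5%), in 35 of the 171 (20.5%) of identity genes with a smallest difference above 4, in 3.88% of the 11141 promoters of genes tested, in 2.52% of those of the 1388 genes with a promoter that were lower than in all 3 populations, and in 3.69% of all 27025 promoters. The motif CCGGAAGT, used by other factors of the ETS family, was in 4.65% of the identity promoters, 1.75% of those above 4 and 8.28% of genes tested. It shares its last 6 bases with the PU.1 motif, and the same position cannot match both. The motif of interferon regulatory factors, GAAA repeated after any 2 bases, was in 7.60%, 13.5% and 3.96% of these sets, and the AP-1 motif TGANTCA in 9.08%, 14.6% and 6.498%. For C/EBP (TTGCGCAA) the shares were 0.681%, 0.585% and 0.314%, for the MITF and TFE factors (TCACGTGA) 1.48%, 1.17% and 2.11%, and for the TATA box (TATAAA) 12.6%, 13.5% and 9.45%. Over all 27025 promoters the shares were 4.31% for CCGGAAGT, 3.99% for the interferon motif, 8.97% for AP-1, 0.207% for C/EBP, 1.12% for MITF and TFE and 15.7% for the TATA box. A match is a string of letters and no evidence of binding.

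**Figure D5:**
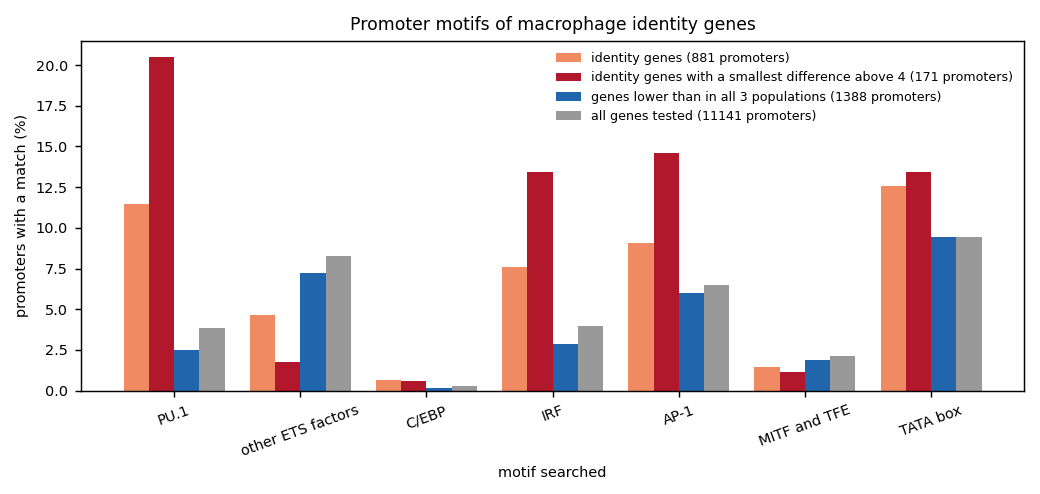
Share of promoters (%) that hold each of 7 motifs, for identity genes, identity genes with a smallest difference above 4, genes lower in macrophages than in all 3 populations, and all genes tested. The PU.1 motif rises from 3.88% of genes tested to 11.5% and 20.5% of the identity sets, while the motif of other ETS factors falls from 8.28% to 4.65% and 1.75%.

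The 10 matches to the PU.1 motif printed here show how the motif sits in its 30-base surroundings. They come from the genes with the largest smallest differences after genes on some chromosomes were left out. The motif is in capitals, and the strand that reads it 5′ to 3′ is the one printed.
C1qc (chr4:136893091-136893120, plus strand): tgtgccaaaatGAGGAAGTgtctgccgtcc
Fcgr4 (chr1:171018891-171018920, minus strand): tgactagaagaGAGGAAGTaaatagcctta
Tlr9 (chr9:106222597-106222626, minus strand): ctcagagaattGAGGAAGTgacactttcac
Ctss (chr3:95526773-95526802, minus strand): gcatccacaatGAGGAAGTgaactttcatt
Mmp12 (chr9:7344298-7344327, minus strand): gagtcttggaaGAGGAAGTgggtgaagtgg
Pld4 (chr12:112760653-112760682, plus strand): ctcagaacaaaGAGGAAGTgaatggaaggg
Slamf9 (chr1:172475341-172475370, plus strand): taatgtgtacaGAGGAAGTtggagggagaa
Cd300ld (chr11:114990011-114990040, minus strand): tctactcattaGAGGAAGTtccctgttcac
Pirb (chr7:3720484-3720513, minus strand): gtcacaccattGAGGAAGTcagagcatggt
Cd72 (chr4:43454657-43454686, plus strand): aagtcataaaaGAGGAAGTaggtctttggc

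The matches began between 195 bases before the gene start (C1qc) and 10 bases after it (Tlr9), and those of Ctss, Slamf9, Pld4 and Tlr9 lay within 10 bases of the start. In Fcgr4 the match began 24 bases before the start, in Cd72 49 and in Mmp12 88. Mmp12 encodes a macrophage elastase, Pld4 an endosomal nuclease, Slamf9 and Cd300ld surface receptors, and Cd72 a lectin-like receptor that was at 1171, 874, 922 and 1064 in the macrophage samples against 2.38 to 16.7.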

How the data were processed

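RNA of sorted kidney cells was amplified to cDNA (Ovation RNA-Seq V2, per the labels) and sequenced. The authors deposited 1 table of FPKM per gene, and their processing notes name FastQC, Bowtie2, RSEM, DESeq2 and mm10, with no versions or roles. FPKM hold no counts, so depth is unknown beyond relative values. Of 46 value columns, 44 were used, and 2 that share a name were not assigned to a sample. Another PT sham sample was not analysed here. The treatment label placed 1 PT sample, whose title names both operations, in the UUO group. Every column held different values.

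The 37 mitochondrial genes were left out and each sample was scaled to a sum of 1000000. limma 3.58.1 (R 4.3.3, trend in the prior variance) was fitted to log2(rescaled FPKM + 1) of genes with a mean of at least 1, with 4 populations sharing 1 spread and a separate fit for each surgery. P-values were adjusted by Benjamini-Hochberg over all genes, with a threshold of 0.05. Python 3.11.15, numpy 2.4.6 and pandas 2.3.3 did the rest. On simulated data of the sham comparison (16934 genes), 7% of 100 genes raised by 1 on the log2 scale and 55% of 100 raised by 2 were called in all 3 comparisons, and 0% of unchanged genes. In the simulation all populations shared the same mean for every other gene, unlike in the sham data, where many genes differ. The adjustment is then stricter, so these shares do not measure how often the sham comparison misses a gene. A small difference may still be missed, and how often was not measured.

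The rule, the gene lists and the genes to name were chosen with earlier results of these data known. Genes named were Adgre1, Csf1r and Ptprc, the 15 identity genes with the largest smallest difference and separate groups, up to 4 identity genes and up to 2 genes called lower in each list, the 3 largest falls in each comparison, the 3 genes next to the threshold on each side, and markers of other cells at or near 0. Gene models without a proper name were not named among the 15 leading genes or the largest falls. Other list members in the text, and the further B cell genes, were chosen after their values were seen. Alternatives were another pseudocount, filter, scaling, spread and fold threshold, a replicate block and each sample left out in turn.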

Additional observations from a re-analysis of the deposited data

Results flagged for a closer look

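Among 386 groups of 4 sham samples, a gene picked by the naming rules and a population at a time, 28 held a sample far from the other 3. The cutoff used gives about 1 in 20 for independent values with a normal spread. These levels are bounded at 0 and the groups share samples, so the count cannot be set against chance. The ratio given is that sample's gap to the nearest other sample over the whole range of the group. Levels are rescaled FPKM. In macrophage samples the high ones were Adgre1 in the third (463, ratio 0.907), C1qa in the fourth (3211, ratio 0.903), Cd68 in the fourth (1531, ratio 0.905) and Il34 in the second (8.66, ratio 0.848). The low ones were Lilrb4a in the fourth (247, ratio 0.899), Thy1 in the fourth (0.952, ratio 0.98), Sfrp2 in the fourth (1.09, ratio 0.843) and Ctgf in the fourth (1.72, ratio 0.869). In endothelial samples the high ones were Cxcr3 in the third (0.314, ratio 1.00), Lyz2 in the third (132, ratio 0.883), Cd163 in the first (0.539, ratio 0.885), Olfml3 in the second (4.201, ratio 0.913), Evi2a in the fourth (2.79, ratio 0.85), Fcmr in the first (2.38, ratio 1.00), Batf3 in the third (28.3, ratio 0.859), Sfrp2 in the third (106, ratio 0.857) and Gm16096 in the first (0.337, ratio 1.00). The low ones were Ly86 in the fourth (3.40, ratio 0.854), Nod1 in the fourth (22.6, ratio 0.835), Ehd3 in the fourth (558, ratio 0.868) and Clec9a in the fourth (4.23, ratio 0.862). In stromal samples the high ones were Irf5 in the fourth (4.62, ratio 0.857), Cxcr3 in the fourth (0.454, ratio 1.00), Fcmr in the second (0.659, ratio 1.00), S100a9 in the first (1.02, ratio 1.00) and Gm16096 in the third (0.553, ratio 1.00). The low ones were Tfec in the third (1.90, ratio 0.849) and Ppbp in the third (0.385, ratio 0.948). A ratio of 1 means that the other 3 samples were at 0. The fourth macrophage sample was low for Lilrb4a and for Thy1, Sfrp2 and Ctgf, which are high in stromal cells, and high for C1qa and Cd68.

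In 3 of the named genes a difference was called with opposite signs in sham and after surgery, and its change was tested as a limma interaction with adjustment over all genes. Since opposite calls in the same values were the condition for reporting, small interaction p-values were likely beforehand and add little to those calls. Mertk in macrophages against PT cells changed by 2.24 in UUO (adjusted p = 1.2e-05) and by 2.33 in rUUO (adjusted p = 6.0e-05). Itga4 against stromal cells changed by 5.58 (adjusted p = 6.2e-11) and 4.90 (adjusted p = 5.7e-09). Hgf against stromal cells changed by -3.13 (adjusted p = 0.00011) and -1.93 (adjusted p = 0.037).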

How the results depend on the processing

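The count of 1430 sham identity genes stayed within 1.5 times of itself under every alternative. It was lowest with a mean of at least 5, at 983 genes, 967 of them shared (67.6% of the 1430), where 11881 genes were tested. Scaling raised it, to 2119 genes with median-ratio scaling (1430 shared), 2056 with quantile normalization (1388 shared) and 2055 with FPKM as deposited (1271 shared). Under every scaling 1239 genes (86.6%) were called. Leaving out each sample in turn gave 1247 to 1457, and 1066 genes were called each time. No named gene reversed, and the named calls changed in 78 of their repeats, 50 of which lost and 28 gained the call. They concerned Hmox1, S100a9 and the 6 genes next to the threshold, and Hgf, Spty2d1 and Gm16096 each lost their call without some single samples.

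With FPKM as deposited the counts of higher and lower genes against PT cells became 7439 and 1784 in sham, 4676 and 2184 in UUO, and 5986 and 1850 in rUUO, and against stromal cells in sham 3981 genes were lower. The share of mitochondrial FPKM is part of this scale by construction. With median-ratio scaling the counts of higher and lower genes were 3376 and 4131 against stromal cells in sham, 2539 and 2837 against endothelial and 2791 and 3474 against stromal cells in rUUO. It gave 1481 identity genes in rUUO, and 1145 sham identity genes were called again there. Quantile normalization gave 3735 and 4077 against stromal cells in sham, 2408 and 2915 against endothelial and 2923 and 3339 against stromal cells in rUUO, and 1445 rUUO identity genes. Beyond the removal of the median shift by these scalings, the cause was not tested.

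With the replicate number as a block, 1461 sham, 1006 UUO and 851 rUUO identity genes were called. Same-numbered sham samples of different populations had correlations of their deviations of -0.028 to 0.134 over 21 pairs (median 0.008), 2 of them above 0.1. Over 63 pairs with different numbers they were -0.122 to 0.062 (median -0.005), with none above 0.1. The reported fits treat the samples as unpaired. Whether some same-numbered samples share a mouse or a batch cannot be told from these values.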
